A study of Mus musculus with 10 samples.

Results

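The 48 genes described here encode the clathrin adaptors and sorting proteins of the trans-Golgi network (TGN) and endosomes. They are listed by name and cover the AP-1, AP-2 and AP-3 complexes, the GGA adaptors, clathrin and its assembly proteins, sorting receptors and TGN cargo, retromer with its sorting nexins, and cytosolic sorting factors. All 48 were among the 53801 genes of the count table, and 47 of them were among the 14336 genes with enough reads to be tested. The remaining gene, *Sorcs1*, had no count in any library. RNA sequencing compared 2 stable lines of AtT20/D16v-F2 cells, a mouse pituitary tumour line of corticotroph origin. One line carried a short hairpin RNA (shRNA) against *Creb3l1*, a membrane-bound transcription factor of the CREB3 family, and the control line carried a non-targeting shRNA. Both were made by lentiviral transduction, and 5 RNA samples of each line were sequenced. Each condition is 1 stable line, so an effect of the knockdown and a difference between the lines themselves cannot be told apart, and p-values measure the spread between RNA samples of the same line.

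Cargo leaving the TGN is gathered by adaptors that bind sorting signals in the tails of membrane proteins and recruit clathrin. The heterotetrameric adaptor AP-1 and the monomeric GGAs act at the TGN and endosomes, AP-2 acts at the plasma membrane, and AP-3 serves transport towards lysosomes and related organelles. In neuroendocrine cells such as corticotrophs, hormone precursors are packed into dense-core granules at the TGN, and AP-1 removes material from immature granules while they mature. Retromer, together with sorting nexins that bend membranes, returns receptors from endosomes to the TGN.

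Library totals lay between 17420698 and 22205107 reads counted on genes. Non-targeting shRNA replicate 3 stood apart, since the non-coding gene *Gm42418* took 4.13% of its counts against 0.106% to 0.191% in the other 9 libraries, and results that rest on it are given with and without it. *Creb3l1* itself fell, with 3689 ± 148 normalised counts (SD, n = 5) in the control line and 1090.0 ± 59.2 in the knockdown line. Its log2 fold change was -1.76 (SE 0.036, adjusted p = 2.1e-33) in the quasi-likelihood test of edgeR, adjusted over all genes tested by the Benjamini-Hochberg method. All adjusted p-values of single genes below come from the same test, with a threshold of 0.01. A normalised count is a read count scaled to a common library size. All 6 corticotroph markers were detected, with summed normalised counts of 150424 to 161539 in the control libraries and 108547 to 115408 in the knockdown libraries. Most of each sum was *Pomc*, which fell (log2 fold change -0.51, adjusted p = 1.2e-16), as did *Tbx19* (-0.27, 1.2e-13) and *Pcsk1* (-0.46, 1.2e-19). *Neurod1* (log2 fold change 0.62, adjusted p = 3.2e-19) and *Pitx1* (0.36, adjusted p = 0.0073) rose. *Crhr1* was low, at 21.2 to 37.7 in the control libraries and 17.1 to 43.6 in the knockdown libraries, and did not pass (-0.11, adjusted p = 0.72). By quantitative PCR the study reported unchanged *Pomc* mRNA in its knockdown lines. Of 6 markers of other pituitary hormone cells, 4 (*Prl*, *Tshb*, *Fshb* and *Pou1f1*) had no count in any library, and their sum did not pass 1.88. Summed fibroblast markers were at 33.8 to 92.5 in the control libraries and 50.9 to 113 in the knockdown libraries, with *Lum* at 0 throughout. Endothelial markers were at 17.0 to 25.7 and 7.49 to 11.0, with *Cdh5* and *Kdr* at 0, and immune markers at 34.2 to 51.9 and 24.6 to 38.2, with *Ptprc* and *Cd3e* at 0. The part of these markers in the results was not tested, and in bulk RNA a smaller number of cells of a type and less RNA per cell cannot be told apart.

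The subunits whose RNA differed most between the lines were sigma-1B (*Ap1s2*), mu-1B (*Ap1m2*) and gamma-2 (*Ap1g2*) of AP-1, each of which has a close relative in the same complex. Coding sequences of the mu subunits are shown because these relatives are compared with each other. They were read from GENCODE transcripts of GRCm38, over 75 bases from coding base 4, and capitals mark bases of *Ap1m1* that differ from *Ap1m2*.
Ap1m2: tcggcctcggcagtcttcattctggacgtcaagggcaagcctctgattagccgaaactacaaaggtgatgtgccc
Ap1m1: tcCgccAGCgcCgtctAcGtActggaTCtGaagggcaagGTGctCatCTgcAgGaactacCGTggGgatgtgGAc
Over these bases *Ap1m1* differed from *Ap1m2* at 25 positions. The longest identical run between whole transcripts was 14 bases for *Ap1s1* and *Ap1s2*, 26 bases for *Ap1m1* and *Ap1m2* and 13 bases for *Ap1g1* and *Ap1g2*. Over the 20 pairs of related members it was between 12 and 68 bases, always shorter than the 75 bases of an untrimmed read.

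*Creb3l1* is known to bind a G-box, so the 250 bases before the annotated start of each member were searched for words of this kind. The windows came from RefSeq on GRCm38.p6, where 38 of the 48 members matched, with 44 windows. A member is named if any of its windows holds the word, while the shares of all genes count single windows. The word GACGTG, on either strand, stood in the windows of *Ap3b2*, *Arfip2*, *Clta* and *Vps26b*, and in 5.20% of 32851 windows of all genes. The palindrome CACGTG stood in the windows of *Ap1s2*, *Ap2m1*, *Epn1*, *Picalm*, *Snx5*, *Sorl1* and *Vps26a*, against 6.02% of all windows. The cAMP response element TGACGTCA, which shares the letters GACGT with the first word, stood in those of *Ap2b1* and *Cltb*, against 1.55%. *Clta* and *Sorl1* each also have a window without a word. Of the 13 members with one of these words, 6 (46.2%) differed between the lines, where 40.7% of all genes tested did. Of the 25 matched members with none of the words, 13 (52%) differed. These shares pool the different words, and the difference between them was not tested. Among those with a word, *Ap1s2*, *Picalm* and *Vps26b* were higher and *Ap2b1*, *Arfip2* and *Snx5* lower. The call of *Picalm* ended when offsets for GC content and transcript length were added to the fit (log2 fold change 0.03, adjusted p = 0.27). A match describes the letters only and is no evidence of binding. The windows of the 3 AP-1 subunits that differed most are shown in transcript direction, with CACGTG in capitals. It is in the window of *Ap1s2* and not in those of *Ap1m2* and *Ap1g2*. The windows are at chrX:163908767-163909016 on the plus strand for *Ap1s2* and on the minus strand at chr9:21312334-21312583 for *Ap1m2* and chr14:55106594-55106843 for *Ap1g2*.
Ap1s2: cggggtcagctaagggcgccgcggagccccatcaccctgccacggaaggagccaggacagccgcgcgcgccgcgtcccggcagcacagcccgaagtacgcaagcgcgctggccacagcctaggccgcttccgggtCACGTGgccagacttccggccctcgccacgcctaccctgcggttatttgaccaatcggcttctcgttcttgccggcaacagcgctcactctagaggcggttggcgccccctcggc
Ap1m2: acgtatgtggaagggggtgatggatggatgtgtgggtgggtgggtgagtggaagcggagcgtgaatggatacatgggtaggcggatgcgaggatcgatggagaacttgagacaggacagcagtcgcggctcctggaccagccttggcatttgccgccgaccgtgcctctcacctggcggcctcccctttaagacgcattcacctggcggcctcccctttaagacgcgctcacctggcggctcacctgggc
Ap1g2: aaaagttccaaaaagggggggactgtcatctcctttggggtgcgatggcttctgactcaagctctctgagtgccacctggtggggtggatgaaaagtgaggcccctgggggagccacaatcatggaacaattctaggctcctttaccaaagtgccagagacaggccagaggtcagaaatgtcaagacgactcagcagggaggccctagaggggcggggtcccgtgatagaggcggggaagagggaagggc

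Of the 47 members tested, 20 differed between the lines at an adjusted p under 0.01, where 40.7% of all genes tested did. Of these, 11 were higher in the knockdown line, in a background of 20.6% of all genes, and 9 were lower, in a background of 20.1%. For 17 members every library of one line lay beyond every library of the other, as was so for 36.0% of all genes. Depth bears on these counts, since 27 members were among the 3584 genes with the highest mean counts, of which 56.0% were called, as were 14 of the 27 members. The changes were small. The median size of the log2 fold change was 0.11 over the members, 0.15 over all genes tested and 0.11 over the 3584 genes of highest count, and the median with its sign was 0.025 over the members and -0.0025 over all genes. Only *Ap1s2* and *Ap1m2* were both called and at least 1.5-fold different, as were 7.73% of all genes. The share of members called was therefore close to the background in this test. With DESeq2 it was 40.4%, where 31.8% of the 17404 genes it tested were called. That set is wider than the 14336 genes of edgeR's test, so these background shares are over unlike sets of genes. What follows describes which subunits moved and in which direction.

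**Figure D1:**
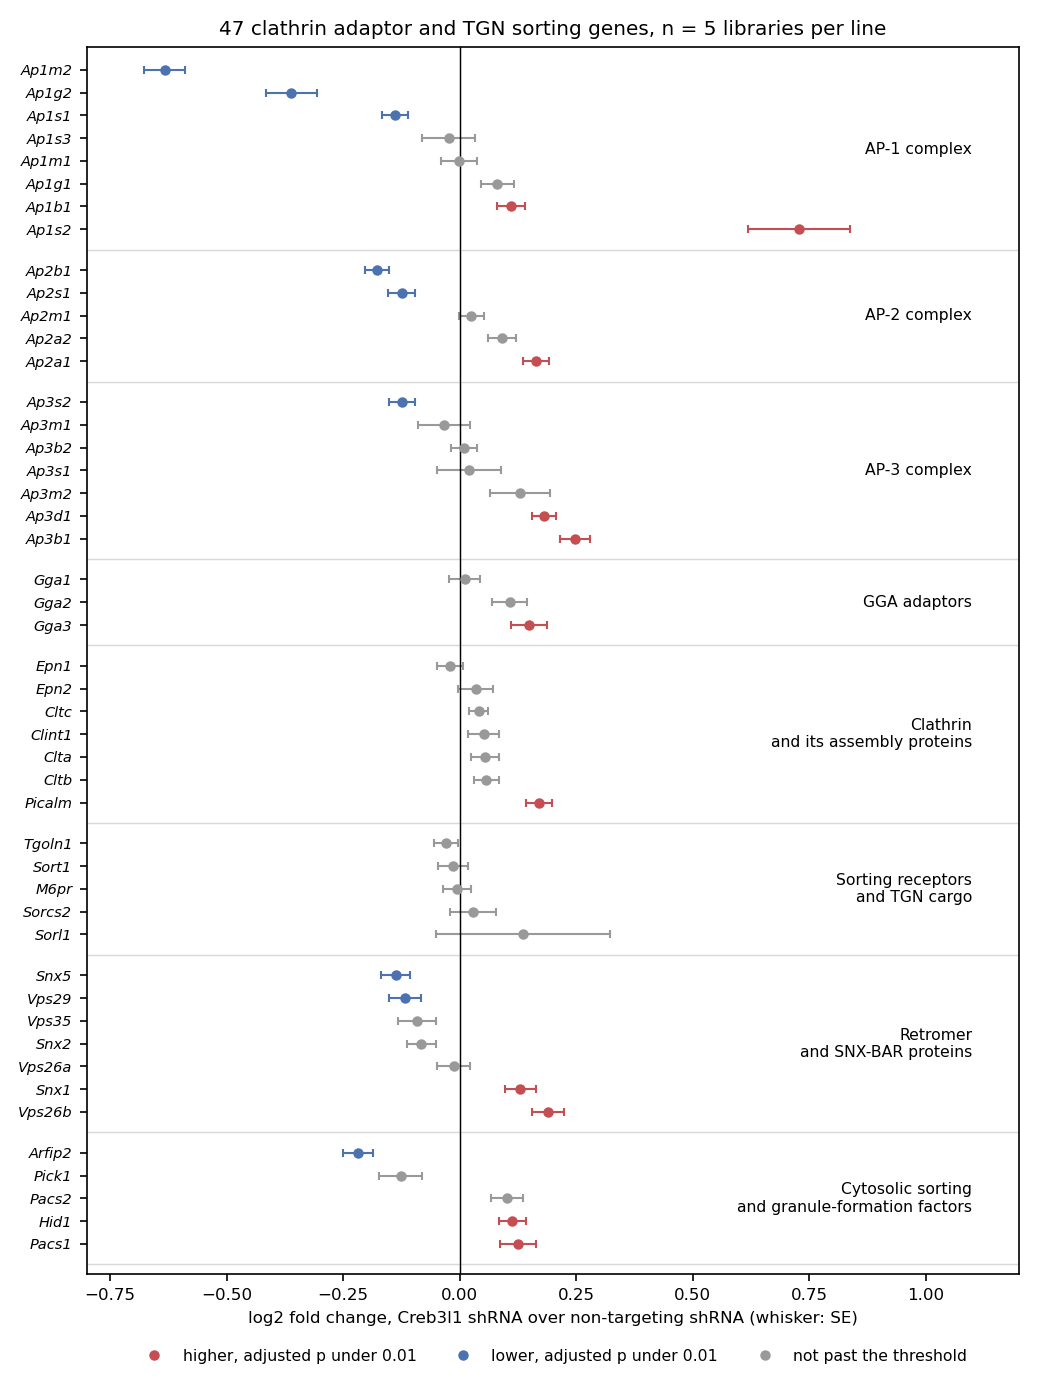
Log2 fold changes of the 47 members tested (*Creb3l1* shRNA over non-targeting shRNA, horizontal axis), grouped by complex or role, with whiskers for the SE and n = 5 libraries per line. Red points were higher and blue points lower at an adjusted p under 0.01, and grey points did not pass. The AP-1 subunits span -0.63 to 0.73, while 4 of the 5 sorting receptors and cargo proteins lie within 0.03 of 0 and *Sorl1*, with few reads, has the widest whisker.

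Within AP-1, *Ap1s2* and *Ap1b1* rose, *Ap1m2*, *Ap1g2* and *Ap1s1* fell, and *Ap1g1*, *Ap1m1* and *Ap1s3* did not pass the test. AP-1 is built from a gamma and a beta large subunit, a mu medium subunit that reads tyrosine-based sorting signals, and a sigma small subunit that, with gamma, reads dileucine-based signals. The largest relative change among members was that of *Ap1s2* (ENSMUSG00000031367, chromosome X from 163909017 to 163933666, plus strand), which encodes sigma-1B. Its normalised counts were 182, 176, 262, 214 and 213 in non-targeting replicates 1 to 5 and 379, 273, 333, 337 and 401 in *Creb3l1* shRNA replicates 1 to 5. Every knockdown library was above every control library, although the lowest knockdown value and the highest control value, that of the library rich in *Gm42418*, lay close together. The means were 209 ± 34.0 normalised counts (SD, n = 5) in the control line and 344 ± 49.1 in the knockdown line, and *Ap1s2* rose with a log2 fold change of 0.73 (SE 0.11, adjusted p = 2.3e-05). Without non-targeting replicate 3 it was 0.81.

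Its relatives did not rise. *Ap1s1* (ENSMUSG00000004849, chromosome 5 from 137034993 to 137046135, minus strand) encodes sigma-1A, the form with the most RNA. It had 3001, 3065, 3078, 3121 and 3064 normalised counts in the control libraries and 2781, 2893, 2847, 2771 and 2636 in the knockdown libraries. The lines did not overlap, and *Ap1s1* fell, with a log2 fold change of -0.14 (SE 0.029, adjusted p = 8.7e-05). This call ended when offsets for GC content and transcript length were added to the fit, where its log2 fold change was -0.039 (adjusted p = 0.20). *Ap1s3* (chromosome 1 from 79606876 to 79671972, minus strand), which encodes sigma-1C, had 455, 479, 447, 428 and 462 counts in the control line and 481, 451, 418, 449 and 433 in the knockdown line. These ranges overlapped, with a log2 fold change of -0.024 (SE 0.056, adjusted p = 0.75).

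*Ap1m2* (ENSMUSG00000003309, chromosome 9 from 21294275 to 21312337, minus strand) encodes mu-1B, the form of the medium subunit known from polarised epithelial cells. Its normalised counts were 1021, 1013, 1053, 1039 and 992 in the control libraries and 659, 725, 657, 656 and 606 in the knockdown libraries. The knockdown libraries were all below the control libraries, with a gap wider than the spread within either line. The means were 1024 ± 23.5 normalised counts (SD, n = 5) in the control line and 661 ± 42.1 in the knockdown line, and *Ap1m2* fell with a log2 fold change of -0.63 (SE 0.043, adjusted p = 5.9e-16). Its ubiquitous relative *Ap1m1* (ENSMUSG00000003033, chromosome 8 from 72240018 to 72257385, plus strand), which encodes mu-1A, had 1230.1, 1204, 1157, 1316 and 1284 counts in the control line. In the knockdown line the counts of *Ap1m1* were 1158, 1278, 1278, 1273 and 1211. Its lines overlapped almost entirely, with a log2 fold change of -0.0016 (SE 0.039, adjusted p = 0.98).

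*Ap1g2* (ENSMUSG00000040701, chromosome 14 from 55098575 to 55106593, minus strand) encodes gamma-2, the less studied form of the gamma subunit. Its normalised counts were 638, 622, 539, 678 and 586 in the control libraries and 485, 487, 479.7, 487 and 451 in the knockdown libraries. The knockdown libraries were close to each other and all below the lowest control library, non-targeting replicate 3. The log2 fold change was -0.36 (SE 0.054, adjusted p = 4.2e-07), and -0.40 without that library. Over 9.88% of its exon bases *Ap1g2* overlaps *Thtpa* and the antisense gene *Gm20687* on the opposite strand. *Thtpa* had a log2 fold change of 0.037 (adjusted p = 0.63). *Ap1g1* (ENSMUSG00000031731, chromosome 8 from 109778554 to 109864204, plus strand) encodes gamma-1, and 18.7% of its exon bases overlap the antisense gene *Gm17344*. It had 1441, 1378, 1341, 1399 and 1495 counts in the control line and 1485, 1549, 1426, 1449 and 1557 in the knockdown line, which overlapped, with a log2 fold change of 0.081 (SE 0.036, adjusted p = 0.057). *Ap1b1* (chromosome 11 from 4986824 to 5042791, plus strand), which encodes beta-1, had 2442 to 2583 counts in the control line and 2606 to 2801 in the knockdown line, a log2 fold change of 0.11 (SE 0.030, adjusted p = 0.0021).

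**Figure D2:**
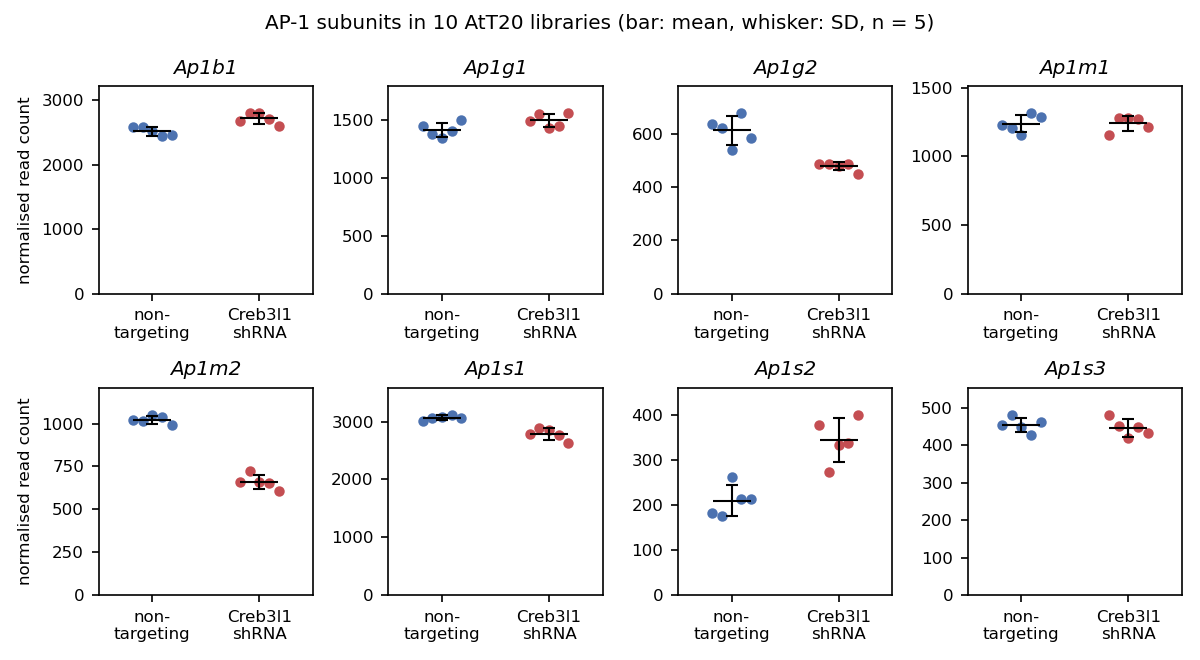
Normalised read counts (vertical axes, from 0) of the 8 AP-1 subunits in the 5 non-targeting (blue) and 5 *Creb3l1* shRNA (red) libraries, with the mean as a bar and the SD as a whisker. The points of *Ap1m2* are at 992 to 1053 in the control line and 606 to 725 in the knockdown line, those of *Ap1s2* lie higher in the knockdown line, and those of *Ap1m1* and *Ap1s3* overlap.

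Levels of different subunits were compared as reads per kilobase of exon and per 1000000 reads of the library, called reads per kilobase from here on. On this scale the sigma subunits of AP-1 together stood at 78.7 ± 1.02 in the control line and 73.6 ± 1.85 in the knockdown line. The share of *Ap1s2* in them went from 2.64% ± 0.409 to 4.66% ± 0.758 (SD, n = 5), so that sigma-1B remained a minor form, and that of *Ap1s1* from 87.5% ± 0.393 to 84.9% ± 1.09. For the mu subunits the summed level was 35.3 ± 0.909 in the control line and 29.6 ± 1.26 in the knockdown line, and the share of *Ap1m2* went from 45.6% ± 1.58 to 35.1% ± 1.37. For the gamma subunits it was 16.3 ± 0.793 in the control line and 15.2 ± 0.324 in the knockdown line, and the share of *Ap1g2* went from 44.4% ± 2.15 to 37.1% ± 1.45. The single beta-1 gene had a level of 25.1 ± 0.666 in the control line and 27.0 ± 0.811 in the knockdown line. In both lines the mean level of the gamma subunits was thus the lowest of the 4 kinds of AP-1 subunit, and that of the sigma subunits the highest. These sums were not tested, and they depend on exon lengths merged over all annotated transcripts of each gene.

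Ratios of related subunits within a library do not depend on library scaling but can depend on GC content and length, and they were compared between the lines with a two-sided exact permutation test over libraries. Of 20 pairs, 19 could be tested and 10 differed at an adjusted p under 0.05. Of these, 8 reached an exact permutation p of 0.0079, the smallest that 5 against 5 libraries allow. The share among pairs of other genes was not computed. In edgeR's test 50.3% of all genes passed an adjusted p under 0.05, so nothing particular to related subunits is read from this count. The ratio of *Ap1s1* to *Ap1s2* fell by 0.86 on the log2 scale (exact permutation p = 0.0079, adjusted p = 0.019). That of *Ap1s2* to *Ap1s3* rose by 0.75, that of *Ap1m1* to *Ap1m2* by 0.64 and that of *Ap1g1* to *Ap1g2* by 0.44, with the same p-values. The balance of the 2 beta subunits, which are closely related between AP-1 and AP-2, moved towards *Ap1b1*, with a difference of 0.29 for *Ap1b1* to *Ap2b1* at the same p. The other ratios that differed were smaller. They were *Ap3b1* to *Ap3b2* (0.24), *Snx1* to *Snx2* (0.21) and *Epn1* to *Epn2* (-0.055), again at the smallest p, and *Vps26a* to *Vps26b* (-0.20) and *Gga1* to *Gga2* (-0.10), both at an adjusted p of 0.045. The last 2 passed in just 2 of the 10 fits that left out 1 library. With any library other than non-targeting replicate 2 or *Creb3l1* shRNA replicate 1 left out, the adjusted p of *Vps26a* to *Vps26b* was 0.060 to 0.082, and with any other than non-targeting replicate 4 or *Creb3l1* shRNA replicate 1 that of *Gga1* to *Gga2* was 0.067 to 0.082. Without non-targeting replicate 1 the adjusted p of *Epn1* to *Epn2* was 0.057. With offsets for GC content and length 11 ratios differed. *Epn1* to *Epn2* then turned its sign (0.016, adjusted p = 0.68) and *Gga1* to *Gga2* was lost (-0.018, adjusted p = 0.68), while *Ap1g1* to *Ap1g2* still differed, by 0.29 in place of 0.44. The ratios gained were *Ap2a1* to *Ap2a2* (0.12, adjusted p = 0.019), *Ap3m1* to *Ap3m2* (-0.30, adjusted p = 0.034) and *Ap3s1* to *Ap3s2* (0.22, adjusted p = 0.041). The ratio of the clathrin light chains, *Clta* to *Cltb*, differed by -0.0021 (adjusted p = 0.97), and its range with each library left out was -0.020 to 0.020.

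**Figure D3:**
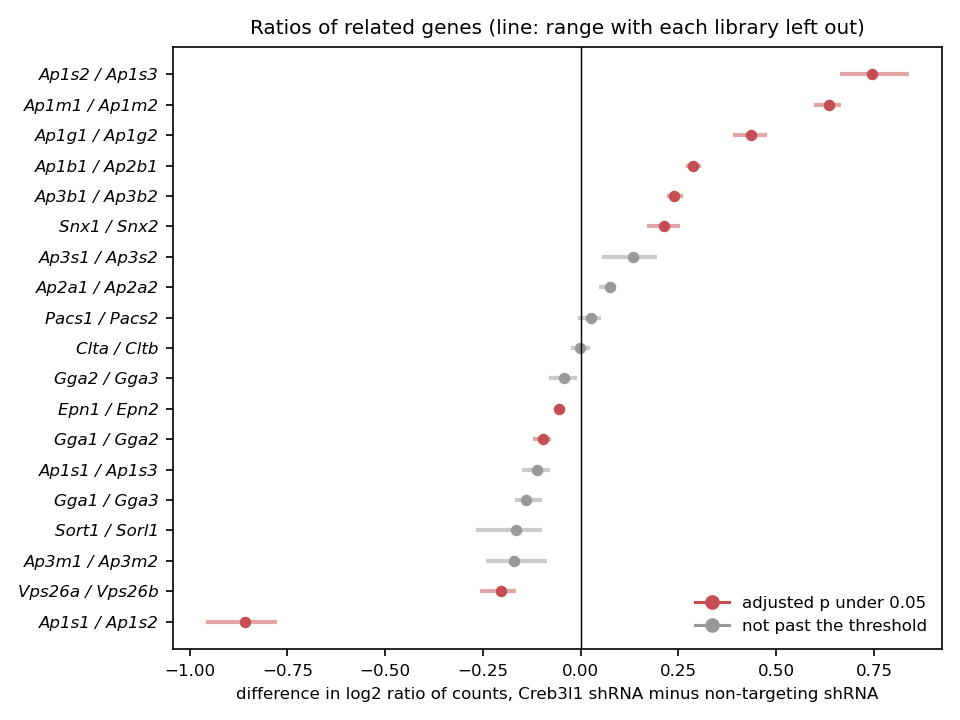
Differences between the lines in the log2 ratio of counts for 19 pairs of related genes (horizontal axis, *Creb3l1* shRNA minus non-targeting shRNA). Points are the differences with all 10 libraries, lines the range when each library is left out in turn, and red marks an adjusted p under 0.05. The AP-1 pairs *Ap1s1* to *Ap1s2* (-0.86), *Ap1s2* to *Ap1s3* (0.75), *Ap1m1* to *Ap1m2* (0.64) and *Ap1g1* to *Ap1g2* (0.44) lie farthest from 0.

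**Figure D4:**
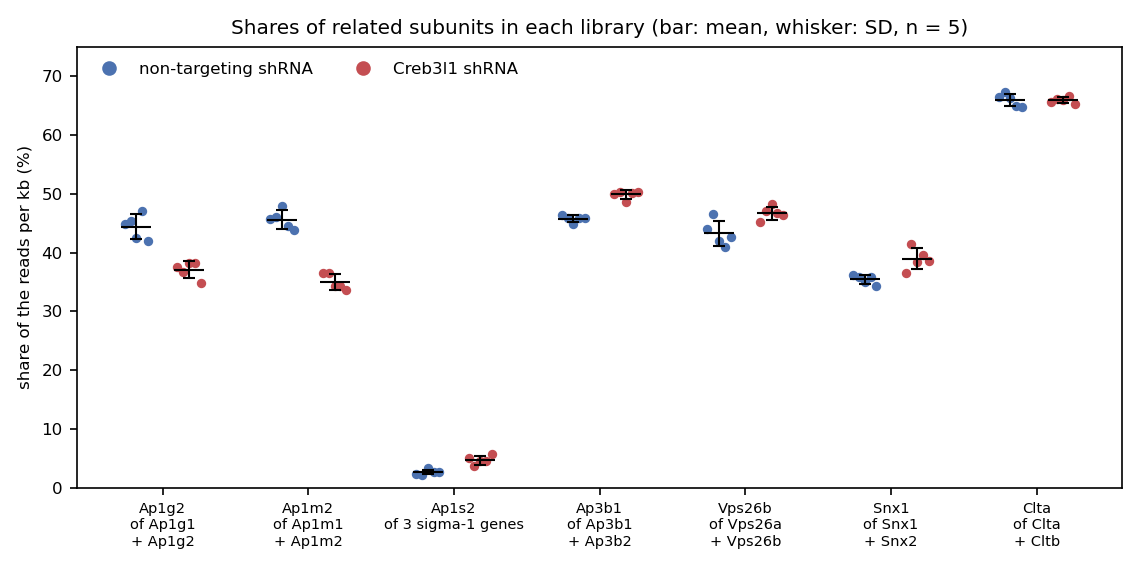
Share of 1 gene in the summed reads per kilobase of its related subunits (vertical axis, percent) in each library, with blue for non-targeting shRNA, red for *Creb3l1* shRNA, bars for means and whiskers for the SD (n = 5). *Ap1m2* goes from 45.6% to 35.1% and *Ap1g2* from 44.4% to 37.1%, while *Clta* stays at 66.0% and 65.9%.

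In AP-2, the adaptor of clathrin-coated pits, *Ap2a1* rose, *Ap2b1* and *Ap2s1* fell, and *Ap2a2* and *Ap2m1* did not pass the test. *Ap2b1*, which encodes the beta-2 subunit that binds clathrin, went from 6326 to 6614 normalised counts in the control libraries to 5554 to 5917 in the knockdown libraries. The lines did not overlap, and the log2 fold change was -0.18 (SE 0.026, adjusted p = 1.8e-07). *Ap2a1*, one of the 2 alpha subunits, went from 3715 to 4036 to 4260.4 to 4617, a log2 fold change of 0.16 (SE 0.028, adjusted p = 5.8e-06). Over 16.7% of its exon bases *Ap2a1* overlaps *Fuz* on the opposite strand, and *Fuz* had a log2 fold change of -0.30 (adjusted p = 3.9e-05), opposite in sign. *Ap2s1*, the small subunit, had a log2 fold change of -0.12 (SE 0.028, adjusted p = 0.00031), but with offsets for GC content and length its log2 fold change was -0.011 (adjusted p = 0.74). *Ap2m1*, the mu-2 subunit, had a log2 fold change of 0.025 (SE 0.026, adjusted p = 0.45), and *Ap2a2* one of 0.09 (SE 0.031, adjusted p = 0.013). *Ap2a2* passed the threshold without non-targeting replicate 1 (adjusted p = 0.0043), *Creb3l1* shRNA replicate 3 (0.0069) or *Creb3l1* shRNA replicate 5 (0.0078). Per kilobase, *Ap2s1* had the highest level of all members in the control line (112 ± 1.13 reads per kilobase), followed within AP-2 by *Ap2m1* (76.5 ± 1.56), *Ap2a1* (45.2 ± 1.47), *Ap2b1* (36.1 ± 0.673) and *Ap2a2* (24.0 ± 0.702).

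In AP-3, the 2 large subunits *Ap3b1* and *Ap3d1* rose and the small subunit *Ap3s2* fell. *Ap3b1* encodes the widely expressed beta-3A subunit, and its normalised counts were 1926 to 2079 in the control libraries and 2246 to 2485 in the knockdown libraries, a log2 fold change of 0.25 (SE 0.032, adjusted p = 2.2e-08). *Ap3b2*, the neuronal form beta-3B, had the slightly higher level per kilobase in the control line (25.4 ± 0.550 against 21.5 ± 0.678). Its log2 fold change was 0.01 (SE 0.028, adjusted p = 0.80), and the share of *Ap3b1* in the 2 beta-3 genes went from 45.8% ± 0.576 to 49.9% ± 0.737. *Ap3d1*, the only delta subunit, rose, with 5591 ± 90.1 normalised counts (SD, n = 5) in the control line and 6338 ± 197 in the knockdown line, a log2 fold change of 0.18 (SE 0.026, adjusted p = 1.8e-07). *Ap3s2*, sigma-3B, went from 2884 to 2969 to 2596 to 2777, a log2 fold change of -0.12 (SE 0.028, adjusted p = 0.00032), which was -0.19 with offsets for GC content and length. The log2 fold changes of *Ap3m1* (-0.034, SE 0.056), *Ap3m2* (0.13, SE 0.064) and *Ap3s1* (0.02, SE 0.069) did not pass, and their SEs were the largest of the complex. *Ap3m1* shares 29.8% of its exon bases with *Vcl* on the opposite strand, and *Vcl* had a log2 fold change of -0.79 (adjusted p = 1.3e-21). With offsets for GC content and length *Ap3m1* itself passed, with a log2 fold change of -0.16 (adjusted p = 0.0015).

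The GGA adaptors bind the tails of mannose 6-phosphate receptors and sortilin. *Gga3* rose, with 1356 ± 57.2 normalised counts (SD, n = 5) in the control line and 1505 ± 86.4 in the knockdown line, a log2 fold change of 0.15 (SE 0.038, adjusted p = 0.0011), although its lines overlapped slightly. *Gga2* had 1000.4 to 1079 counts in the control libraries and 1088 to 1169.6 in the knockdown libraries, which did not overlap, but its adjusted p of 0.016 missed the threshold at a log2 fold change of 0.11 (SE 0.038). *Gga1*, the most abundant of the 3 per kilobase (20.2 ± 0.692 in the control line), had a log2 fold change of 0.011 (SE 0.033, adjusted p = 0.81). Its ratio to *Gga3* passed the threshold only without *Creb3l1* shRNA replicate 1 (adjusted p = 0.041, and 0.082 with all libraries).

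Clathrin itself did not pass the test. *Cltc*, the heavy chain, was the member with the most reads, with 15205 ± 308 (SD, n = 5) normalised counts in the control line and 15642 ± 129.5 (SD, n = 5) in the knockdown line. Its log2 fold change was 0.041 (SE 0.021, adjusted p = 0.098), and its sign turned with offsets for GC content and length (-0.067, adjusted p = 0.00083). The light chains *Clta* and *Cltb* had log2 fold changes of 0.054 (SE 0.031, adjusted p = 0.14) and 0.057 (SE 0.026, adjusted p = 0.069), and with the same offsets both passed, at 0.13 and 0.089. *Picalm*, a clathrin assembly protein that binds phosphoinositides, was called. It had 3974 to 4110.5 counts in the control libraries and 4223 to 4672 in the knockdown libraries, and a log2 fold change of 0.17 (SE 0.028, adjusted p = 2.2e-06). With those offsets it was 0.03 (adjusted p = 0.27). The epsins *Epn1* (-0.02, SE 0.028) and *Epn2* (0.034, SE 0.037) and the epsin-related TGN protein *Clint1* (0.051, SE 0.033) did not pass on the log2 scale.

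Of the 5 sorting receptors and TGN cargo proteins tested, 0 passed the threshold in edgeR's test, 0 had an unadjusted p under 0.05 in it, and 0 were called by DESeq2, against 40.7% of all genes in the edgeR test. *Sort1*, which encodes sortilin, had 4358 to 4588 normalised counts in the control libraries and 4134 to 4817 in the knockdown libraries. Its log2 fold change was -0.014 (SE 0.032, adjusted p = 0.75). *M6pr*, the cation-dependent mannose 6-phosphate receptor, had a log2 fold change of -0.0059 (SE 0.030, adjusted p = 0.89). *Tgoln1*, which encodes the cycling TGN protein TGN38, had one of -0.03 (SE 0.026, adjusted p = 0.36). The SEs of these 3 genes were 0.026 to 0.032, far under the size of the change in *Ap1m2*. With offsets for GC content and length, *Sort1* (-0.10, adjusted p = 0.0012) and *Tgoln1* (-0.10, adjusted p = 0.00014) passed. *Sorcs2*, a receptor of the same VPS10 family as sortilin, had a lower level (3.38 ± 0.190 reads per kilobase in the control line) and a log2 fold change of 0.028 (SE 0.049, adjusted p = 0.67). *Sorl1* had 28.2 to 42.4 counts in the control line and 31.2 to 41.5 in the knockdown line, and with an SE of 0.19 a small change was not detectable at this depth.

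Retromer is a trimer of VPS26, VPS29 and VPS35, and its subunits did not move together. *Vps26b* rose, with 1907 ± 100.4 normalised counts (SD, n = 5) in the control line and 2174 ± 62.6 in the knockdown line, a log2 fold change of 0.19 (SE 0.034, adjusted p = 9.3e-06), and the lines did not overlap. Its relative *Vps26a* had a log2 fold change of -0.013 (SE 0.036, adjusted p = 0.80). *Vps29* fell by 0.12 (SE 0.035, adjusted p = 0.0045), with overlapping lines. Its call was lost when library totals alone scaled the counts (adjusted p = 0.021), and without non-targeting replicate 4 (0.017), non-targeting replicate 5 (0.026), *Creb3l1* shRNA replicate 1 (0.012) or *Creb3l1* shRNA replicate 3 (0.015). *Vps35*, the core subunit, had 2114 to 2291 counts in the control libraries and 1789 to 2172 in the knockdown libraries, a log2 fold change of -0.092 (SE 0.041, adjusted p = 0.065). With offsets for GC content and length it was -0.22 (adjusted p = 1.1e-08).

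The sorting nexins *Snx1*, *Snx2* and *Snx5* form dimers that shape the tubules in which retromer cargo travels. *Snx1* rose and *Snx5* fell. *Snx1* had 2036 ± 64.3 normalised counts (SD, n = 5) in the control line and 2229 ± 93.7 in the knockdown line, a log2 fold change of 0.13 (SE 0.033, adjusted p = 0.00093). *Snx5* had 2427 ± 70.7 normalised counts (SD, n = 5) in the control line and 2207 ± 56.1 in the knockdown line, a log2 fold change of -0.14 (SE 0.031, adjusted p = 0.00023), with no overlap of the lines. *Snx2*, which can replace *Snx1* in the dimer, had a log2 fold change of -0.082 (SE 0.031, adjusted p = 0.026). The share of *Snx1* in the reads per kilobase of *Snx1* and *Snx2* went from 35.5% ± 0.769 to 38.9% ± 1.81, while their summed level was 65.2 ± 1.41 in the control line and 65.1 ± 0.668 in the knockdown line.

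Among the cytosolic factors, *Arfip2* fell and *Hid1* and *Pacs1* rose. *Arfip2* encodes arfaptin-2, a BAR domain protein at the TGN, and had 2943 to 3281 normalised counts in the control libraries and 2468 to 2803 in the knockdown libraries. Its log2 fold change was -0.22 (SE 0.032, adjusted p = 3.5e-07). *Pick1*, another BAR domain protein that acts in granule formation, had a log2 fold change of -0.13 (SE 0.046, adjusted p = 0.019), and passed without non-targeting replicate 3 (-0.16, adjusted p = 0.0035). *Pick1* shares 18.6% of its exon bases with *Gm49486* on the same strand. *Hid1*, which is needed for the formation of dense-core granules, had 3915 ± 135 normalised counts (SD, n = 5) in the control line and 4235 ± 133 in the knockdown line, a log2 fold change of 0.11 (SE 0.028, adjusted p = 0.00092). *Pacs1*, which links acidic-cluster cargo such as furin to AP-1, had a log2 fold change of 0.13 (SE 0.039, adjusted p = 0.0073). It lost its call in DESeq2 (adjusted p = 0.019), without robust estimation of the spread (0.015), and without non-targeting replicate 2 (0.018), 3 (0.042), 4 (0.016) or 5 (0.013) or *Creb3l1* shRNA replicate 1 (0.015) or 2 (0.027). Its relative *Pacs2*, at 0.10 (SE 0.034, adjusted p = 0.012), passed without non-targeting replicate 1 (0.0078) or *Creb3l1* shRNA replicate 4 (0.0047). Neither PACS gene is therefore separated clearly from the other, and their ratio differed by 0.027 (adjusted p = 0.59).

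Other genes of the same transport steps were listed by role. Of the 82 that could be matched, 80 were tested, and 30 were called, 13 higher and 17 lower, or 37.5% against 40.7% of all genes. Their median log2 fold change was 0.0034, with a median size of 0.092. The share called was 20% to 44.4% in 5 of the 6 lists and 75% in the list of receptors. In the AP-4 and AP-5 complexes, which do not use clathrin, 1 of 9 genes rose and 3 fell. They were *Ap4m1* (0.23, adjusted p = 1.6e-05) and *Ap5s1* (-0.35, 6.5e-06), *Ap5b1* (-0.27, 0.00045) and *Tepsin* (-0.21, 0.0012), with log2 fold changes given first. *Ap5s1* and *Ap5b1* are subunits of the same complex, and tepsin is an accessory protein of AP-4.

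ARF GTPases and their exchange factors recruit AP-1, AP-3 and GGAs to membranes. In a list of 11 genes, which also holds the ARF-binding protein arfaptin-1 (*Arfip1*), 3 rose (27.3%, where 20.6% of all genes rose) and 0 fell in edgeR's test, where 2 lower genes had an unadjusted p under 0.05 and DESeq2 called 0 lower. Of the 11 genes, 9 were among the 3584 genes with the highest mean counts. Only 2 of these 9 were called, where 56.0% of the 3584 were. *Arfgef1*, which encodes the exchange factor BIG1, had 6034, 6069, 5851, 5625 and 5891 normalised counts in the control libraries and 9628, 8259, 9489.5, 9031 and 9504 in the knockdown libraries. The knockdown libraries all lay above the controls, and the log2 fold change was 0.64 (SE 0.035, adjusted p = 4.3e-12). With offsets for GC content and length *Arfgef1* rose by 0.52 (adjusted p = 3.5e-26). *Arfgef2*, its partner BIG2, had a log2 fold change of 0.13 (adjusted p = 0.00057), which was 0.023 (adjusted p = 0.52) with offsets for GC content and length. The ARF-related GTPase *Arfrp1* had one of 0.18 (adjusted p = 0.0010). The lists give no test of a group, and the remaining 8 genes did not pass.

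Of 24 clathrin accessory, fission and uncoating genes, 5 rose and 5 fell, or 41.7% called against 40.7% of all genes. The AP-1 partner gamma-synergin (*Synrg*) rose by 0.24 on the log2 scale (adjusted p = 8.6e-09) and the phosphoinositide phosphatase *Synj1* by 0.23 (adjusted p = 3.7e-07). With offsets for GC content and length these were 0.14 and 0.13. *Dnm3*, a dynamin, had 9.39 to 15.1 counts in the control libraries and 30.9 to 40.7 in the knockdown libraries, so its log2 fold change of 1.49 (SE 0.23, adjusted p = 6.1e-07) rests on few reads. Among 18 retromer partners and tethers, 2 rose and 3 fell, or 27.8% called against the same 40.7%. *Snx32*, a relative of *Snx5* and *Snx6*, had a log2 fold change of -0.39 (adjusted p = 0.00038), *Commd1* of the commander complex 0.32 (5.1e-07), *Vps54* of the GARP tether -0.20 (5.7e-06) and *Snx6* 0.13 (0.0028). *Snx6* missed the threshold without non-targeting replicate 1 (0.011), non-targeting replicate 3 (0.013) or *Creb3l1* shRNA replicate 1 (0.014).

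Of 10 golgins and phosphoinositide enzymes, 20% were called, against 40.7% of all genes. *Golga1* rose by 0.29 (adjusted p = 6.5e-08) and *Pi4k2b*, a phosphatidylinositol 4-kinase, had a log2 fold change of -0.62 (adjusted p = 2.6e-11). The counts of *Pi4k2b* were 461 to 548 in the control libraries and 296 to 340.2 in the knockdown libraries. Among 8 further receptors and lysosomal cargo proteins, 1 rose and 5 fell. All 8 were among the 3584 genes with the highest mean counts, of which 56.0% were called. *Igf2r*, the cation-independent mannose 6-phosphate receptor, had 5458 ± 265 normalised counts (SD, n = 5) in the control line and 4724 ± 182 in the knockdown line, a log2 fold change of -0.21 (SE 0.031, adjusted p = 5.4e-07), while the cation-dependent receptor *M6pr* had -0.0059. *Cpd*, a carboxypeptidase that cycles through the TGN, had -0.20 (adjusted p = 1.4e-06) and -0.32 with offsets for GC content and length, and the lysosomal membrane protein *Lamp2* 0.34 (6.2e-11).

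**Figure D5:**
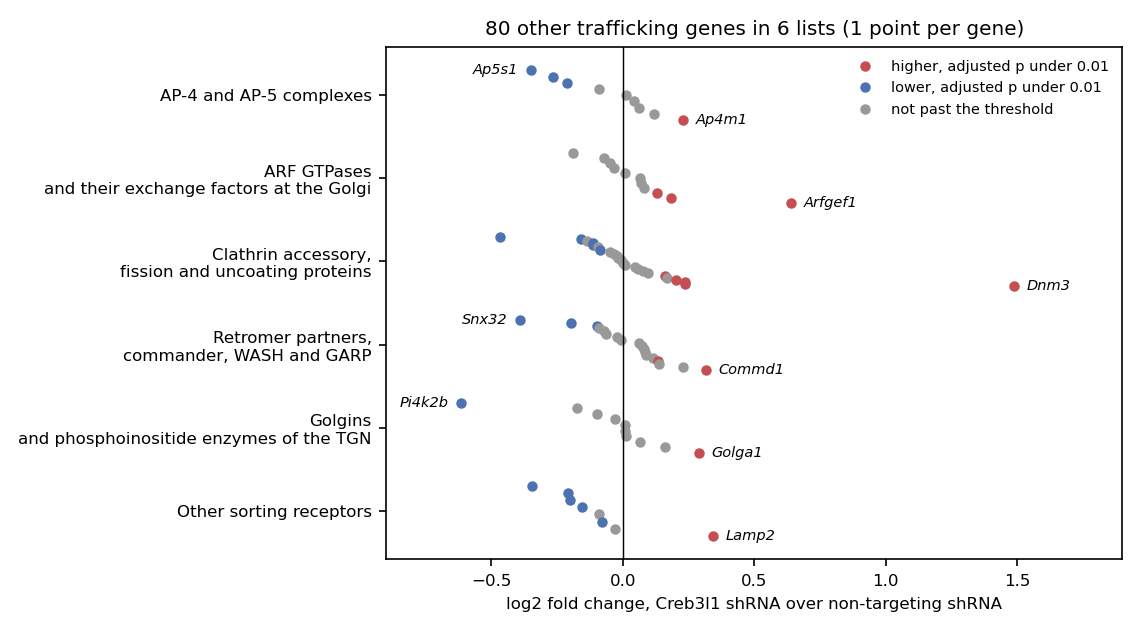
Log2 fold changes (*Creb3l1* shRNA over non-targeting shRNA, horizontal axis) of 80 other trafficking genes in 6 lists by role, with 1 point per gene. Red points were higher and blue points lower at an adjusted p under 0.01, grey points did not pass, and 9 of the outermost called genes are named. *Arfgef1* (0.64), *Pi4k2b* (-0.62) and *Dnm3* (1.49) are the 3 called genes past 1.5-fold in the main test, without offsets for GC content and length.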

How the data were processed

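The measurements are 10 RNA sequencing libraries of AtT20 cells, 5 per stable line. The lines were taken from the labels, and replicate numbers follow the order of the samples within each line. The authors prepared paired-end libraries of poly(A) RNA with a stranded kit, mapped the reads to GRCm38 with STAR and obtained a count per gene from featureCounts and an Ensembl annotation. They deposited whole-number counts of reads per gene without normalisation. The strand setting of the counting is not given in the sources used here, so reads of genes that overlap on opposite strands cannot be told apart.

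The main test used edgeR 4.0.16 in R 4.3.3 (filterByExpr, TMM factors, quasi-likelihood test with robust estimation of the spread, no covariate, Benjamini-Hochberg adjustment over 14336 genes, threshold 0.01, the cut-off used by the study for these data), with DESeq2 1.42.0 as an alternative. The SE is the size of the log2 fold change divided by the square root of F. Normalised counts were scaled from each library's effective size to the mean effective size of the 10 libraries. Reads per kilobase used merged exons of GENCODE M21 on GRCm38, an earlier release than the authors' annotation. Ratios of related genes used counts plus 0.5, all 252 assignments in the exact permutation test (Python 3.11.15), and adjustment over 19 pairs with a mean of at least 10 counts, with a threshold of 0.05. Depth was 17420698 to 22205107 counts per library, and low counts carry the largest errors.

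The members, pathway lists and pairs were chosen with earlier results of these data known. Values in every library were given for members that were called with no overlap and a log2 fold change of at least 0.3 in size, and for their related subunits. Of each pathway list, up to 4 called genes with the largest changes were named, except that some items are not reported here, although the counts include them. Of 83 listed pathway genes, *Tgoln2* was not matched, and *Cert1* was found as *Col4a3bp*. The alternatives changed the tool (DESeq2), the scaling (RLE size factors or library totals), the filter (none, or 10 counts in each library), the design (replicate block, or 1 library left out at a time), the threshold (0.05, or 1.5-fold besides 0.01) and, for ratios, a pseudocount of 1 or at least 50 counts. A fit without robust estimation and one with library-specific offsets for the GC content and length of transcripts (splines with 5 degrees of freedom) were added after the data were seen. For ratios the same offsets were subtracted from the log2 counts.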

Additional observations from a re-analysis of the deposited data

Results flagged for a closer look

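In 9 of the 94 groups of 5 libraries examined (47 members in 2 lines), 1 library stood apart from the other 4 by Dixon's criterion, where chance gives about 1 in 20, or 4.7. All values are normalised counts. *Picalm* had 4223 in *Creb3l1* shRNA replicate 2 and 4549.9 to 4672 in the other 4 libraries of that line. *Vps35* had 1789 in *Creb3l1* shRNA replicate 2 and 2090.2 to 2172 in the other 4 libraries of that line. *Ap2b1* had 5917 in *Creb3l1* shRNA replicate 2 and 5554 to 5644 in the other 4 libraries of that line, and was still below the control line. These 3 genes share the library *Creb3l1* shRNA replicate 2. Without it the log2 fold change of *Picalm* was 0.20, that of *Ap2b1* -0.19 and that of *Vps35* -0.043 (adjusted p = 0.26), and 6026 genes were called in place of 5837. *Ap1g2* had 451 in *Creb3l1* shRNA replicate 5 and 479.7 to 487 in the other 4 libraries of that line. *Ap2a1* had 3715 in non-targeting shRNA replicate 4 and 3959.9 to 4036 in the other 4 libraries of that line. *Ap3s2* had 2884 in non-targeting shRNA replicate 4 and 2953 to 2969 in the other 4 libraries of that line. *Ap3m2* had 333 in non-targeting shRNA replicate 2 and 386 to 408 in the other 4 libraries of that line. *Sort1* had 4588 in non-targeting shRNA replicate 1 and 4358 to 4420.4 in the other 4 libraries of that line. *Ap3s1* had 586 in non-targeting shRNA replicate 3 and 470.4 to 503 in the other 4 libraries of that line, and that library is the one in which *Gm42418* took 4.13% of the counts. The calls of *Ap1g2*, *Ap2a1*, *Ap2b1*, *Ap3s2* and *Picalm* held without the library that stood apart. Other reasons for these values were not tested.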

How the results depend on the processing

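The number of members called was 20, and 18 to 22 with each library left out, 19 with DESeq2, 19 with library totals, 24 with offsets for GC content and length (51.1%, where 42.9% of all genes were called) and 25 at an adjusted p under 0.05 (53.2%, where 50.3% were). At least 1.5-fold left 2 members (1 higher, 1 lower), 3 pathway genes in place of 30 and 1108 genes in place of 5837. Of the 20 members, 19 were called with the same direction by DESeq2 and 17 with offsets, where *Ap1s1*, *Ap2s1* and *Picalm* were lost and *Ap3m1* (-0.16), *Clta* (0.13), *Cltb* (0.089), *Sort1* (-0.10), *Tgoln1* (-0.10), *Vps35* (-0.22) and *Cltc* (-0.067) were gained. *Cltc* reversed its sign there. The calls and directions of *Ap1s2*, *Ap1m2* and *Ap1g2* held in all 18 alternative fits, with log2 fold changes of 0.63 to 0.81, -0.67 to -0.60 and -0.40 to -0.32. The number of genes called was 5408 to 6026 with 1 library left out, and the number of ratios that differed 7 to 11. With the offsets it was 11, and the ratio of *Epn1* to *Epn2* reversed (0.016). Same-numbered libraries of the 2 lines did not deviate together, with correlations of -0.060, 0.015, -0.0053, 0.037 and 0.028 for replicates 1 to 5, so the numbers do not pair them. With the replicate number as a block, 6013 genes and 22 members were called, with *Ap2a2* and *Pacs2* gained. An exact sign-flip permutation test of the ratios over same-numbered libraries cannot go below p = 0.0625 and was not run. Low counts limit *Sorl1* and *Dnm3*.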
